A study of Rattus norvegicus with 8 samples.

Results

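Gastric-type genes are genes whose products are made mainly by the lining of the stomach, and their signals were examined here in the rat colon. The list held 9 genes, Pga5, Ctse, Tff1, Tff2, Gkn1, Gkn2, Muc5ac, Muc6 and Atp4a. It was chosen with earlier results of these data known, so counts of its genes beside shares of all genes are descriptions only. A gene was measured where the RefSeq accession printed for an array probe belonged to its current rat symbol, which gave 8 probes for 7 of the 9 genes, since Atp4a had 2 probes. Muc5ac and Muc6 had no matched probe and were not analysed here. Of the 7 measured genes, 6 were bright enough in enough rats to be tested, among 19899 genes tested in all. Of these 19899, 11921 had a rat symbol, and 7978 stood under another identifier and were each counted as a gene.

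In the stomach, chief cells release pepsinogen, which acid turns into the protease pepsin, and parietal cells secrete that acid through a potassium-exchanging proton pump. Surface and gland mucous cells coat the lining with the mucins Muc5ac and Muc6 together with trefoil peptides and gastrokines, which protect and help to repair the epithelium. The colon relies on goblet cells that make another mucin and another trefoil peptide, and it is not a usual site of pepsinogen or gastrokine production.

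Female Wistar rats were fed from weaning for 3 weeks and were 6 weeks old when middle colon tissue was taken. The REF group ate a standard purified diet and the C10 group a diet with cocoa powder, which supplied polyphenols together with soluble and insoluble fiber. For the CF group, a cocoa fiber powder that brought very little polyphenol matched the fiber proportions of C10. For the I group, inulin matched only the amount of soluble fiber in C10. RNA of 4 rats per diet was hybridised on 8 arrays, with 1 rat labelled with Cy3 and another with Cy5 on each. Rats are numbered 1 to 4 within a diet, and these numbers pair no animals between diets. The RNA came from a bulk piece of tissue, so fewer cells of a type and less RNA per cell cannot be told apart. The p-values measure the spread between these 16 rats.

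The tissue carried the markers of colon epithelium in every rat. Of 12 genes listed for colon, 9 had a probe and all 9 were well above background in all 16 rats, among them Cdx2, which sets intestinal identity, at log2 12.00 to 14.17, and Guca2a, the brightest of the list, at 15.50 to 17.13. The goblet cell list was also complete as far as it was measured, with 7 of 7 genes detected in all 16 rats, and Tff3, the trefoil peptide of goblet cells, read 14.18 to 16.21. Pancreatic acinar enzymes, which would mark another source of digestive proteases, were mostly dim. Prss1, Cpb1 and Pnlip were never well above background, and 2 of 10 genes, Ctrb1 and Cel, were detected in all 16 rats.

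Detection was read from the scanner software, which compares each spot with its background. A gene was taken as detected in a rat when at least 0.5 of the spots of its brightest probe were well above background. The lowest normalized log2 signal with that mark was 5.82 to 6.21 in the single rats, and normalized signals near this level carry no order. By this rule, Pga5, Ctse and Tff1 were detected in all 16 rats, Gkn2 in 8, Tff2 in 5 and Gkn1 in 2. Atp4a was detected in 16 rats by one probe and in 1 rat by the other. Where every spot of a probe had to be well above background, Pga5 was detected in 15 rats, Gkn2 in 7, Tff2 in 4 and Gkn1 in 0. Near background the mark did not follow the signal strictly. For Tff2 in Cy3, C10 rat 3 stood at 2.05 times its local background without the mark. REF rat 1 stood at 1.90 times with the mark in 0.5 of its spots. In REF rat 2, 83.9 % of all spots were well above background, beside 68.6 to 77.8 % in the other rats.

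The margin over background differed among the detected genes. The median spot signal of Ctse was 63.1 to 278 times its local background in Cy3 and 119 to 225 times in Cy5. Pga5 stood at 1.81 to 7.19 times the local background in Cy3 and 1.51 to 9.83 times in Cy5. Tff1 stood at 1.70 to 10.68 times in Cy3 and 1.48 to 6.52 times in Cy5. Ctse was thus far above background in every rat, whereas Pga5 and Tff1 were close to it in many rats and clearly above it in some. The Gkn1 probe reached at most 1.88 times the local background in Cy3 and 1.26 times in Cy5.

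**Figure D1:**
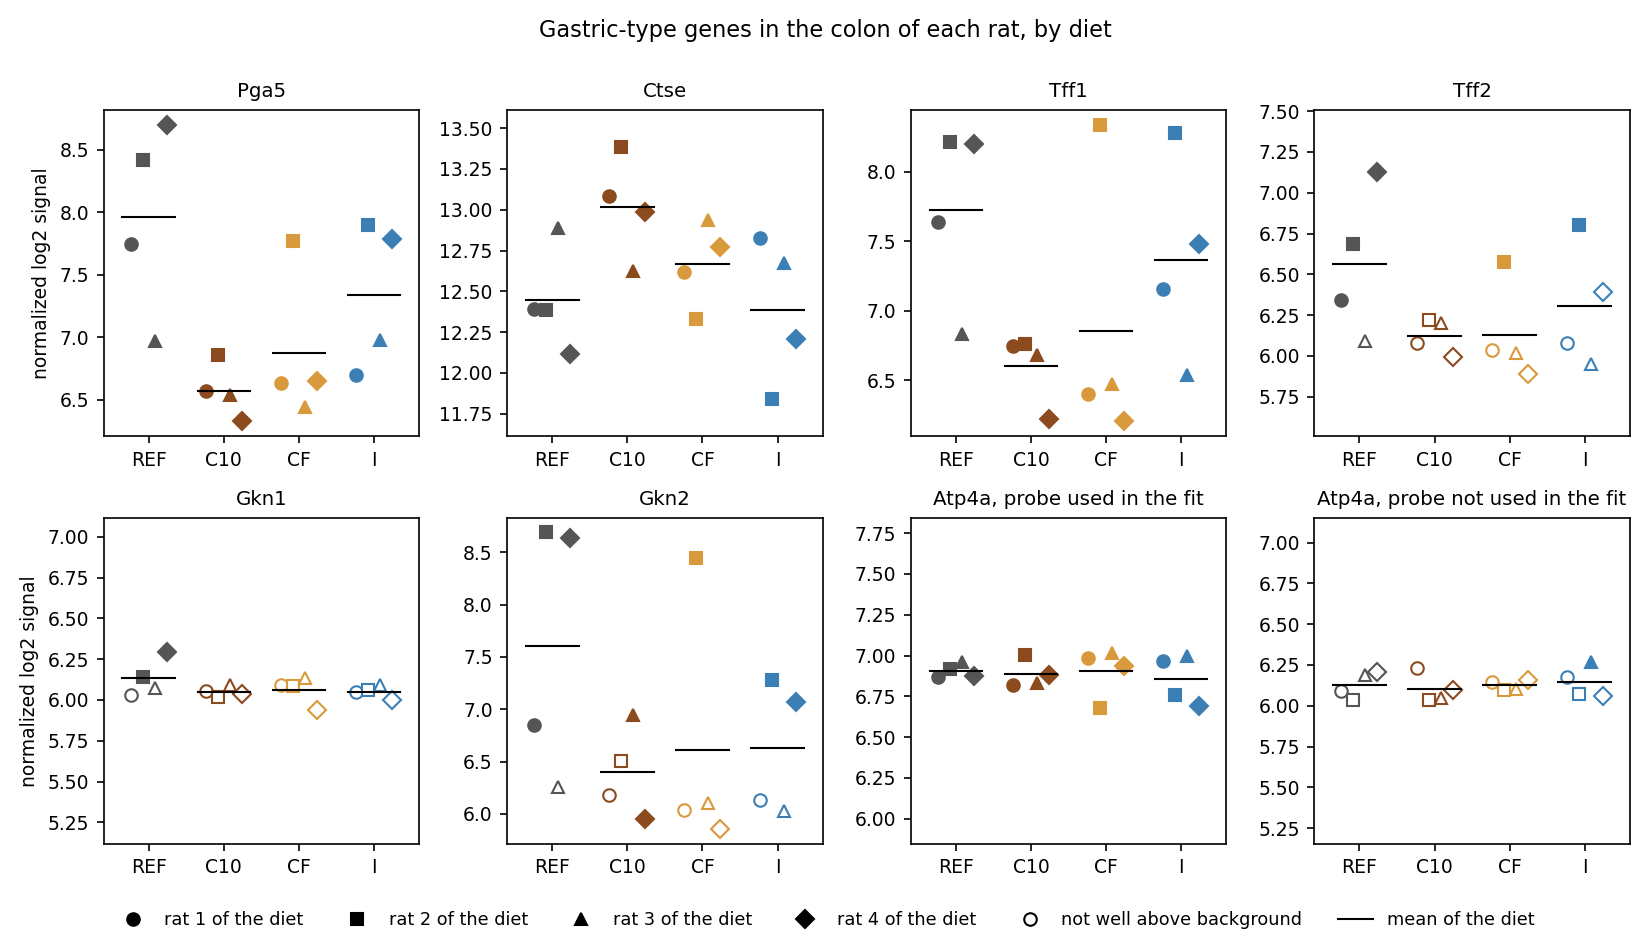
Normalized log2 signal of the 8 probes of 7 gastric-type genes in 16 rats, by diet, with the diet mean as a line, filled symbols where the probe was well above background in at least 0.5 of its spots and open symbols elsewhere. Pga5 read 6.33 to 6.86 in the 4 C10 rats and 6.97 to 8.70 in the 4 REF rats, and the scale differs between panels because levels of different probes cannot be compared.

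Pga5 encodes a pepsinogen, the precursor of pepsin. Its log2 signal was 7.75, 8.42, 6.97 and 8.70 in REF rats 1 to 4 and 6.57, 6.86, 6.53 and 6.33 in C10 rats 1 to 4. In CF rats 1 to 4 it was 6.63, 7.77, 6.44 and 6.65, and in I rats 1 to 4 it was 6.70, 7.90, 6.98 and 7.79. All 4 C10 rats lay below all 4 REF rats, an order that 2.02 % of all genes tested showed, while CF and I overlapped with REF. Within CF, rat 2 alone stood with the high rats, and within I, rats 2 and 4 did.

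The mean Pga5 signal was 7.96 ± 0.77 (SD, n = 4) in REF, 6.57 ± 0.22 in C10, 6.87 ± 0.61 in CF and 7.34 ± 0.59 in I. In the limma fit over all genes, C10 differed from REF by -1.45 ± 0.31 (log2, SE), a 2.73-fold lower signal, with a Benjamini-Hochberg adjusted p of 0.0397. Calls required both a 2-fold change or more and an adjusted p under 0.05, and Pga5 met both in this comparison. It was the only one of the 6 tested genes called, beside 45 of all 19899 genes (0.226 %), of which 41 were lower and 4 higher in C10. An exact permutation test of the 4 C10 against the 4 REF signals, two-sided and adjusted for dye, gave p = 0.0286, the smallest value that 4 against 4 allows.

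The call for Pga5 lay close to the threshold. It was lost in 12 of the 16 fits that left out 1 rat, with the log2 difference between -1.70 and -1.23 in all 16. It was also lost when the log2 signal of Hoxb13, a gene of the distal colon treated further on, entered as a covariate in a fit chosen after seeing the data (-0.92, adjusted p = 0.0952). The size of the difference rested on how background was treated, and with no offset added to the signals it was -2.25 (adjusted p = 0.0391).

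In limma, CF and I did not yield a call for Pga5 against REF. The difference was -0.99997 ± 0.34 for CF (limma adjusted p = 0.609) and -0.47 ± 0.31 for I (adjusted p = 0.873), the latter between -0.87 and -0.11 when 1 rat was left out. Between the experimental diets, C10 minus I was -0.98 ± 0.34 (adjusted p = 0.246) and C10 minus CF was -0.45 ± 0.31 (adjusted p = 0.537). On the arrays that held a C10 and a REF rat together, the difference within the array was -1.18 and -1.56. C10 rats lay on arrays 1 to 4 only and I rats on arrays 5 to 8 only, and within arrays 1 to 4, which also held 2 REF rats, the C10 mean was lower by a log2 difference of -1.51. A term for the set of arrays left the C10 against REF difference at -1.57 (adjusted p = 0.0418). The call was lost in log-ratios within arrays, where 0 of all genes were called, and without a filter on dim probes.

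Ctse encodes cathepsin E, an aspartic protease of the pepsin family that sits inside gastric surface cells, other epithelia and antigen-presenting cells. Its log2 signal was 12.39, 12.38, 12.89 and 12.12 in REF rats 1 to 4 and 13.09, 13.38, 12.62 and 12.98 in C10 rats 1 to 4. It was 12.62, 12.33, 12.94 and 12.77 in CF rats 1 to 4 and 12.83, 11.84, 12.67 and 12.21 in I rats 1 to 4. The C10 rats were mostly above the REF rats, but C10 rat 3 lay below REF rat 3, and all other diets overlapped. The lowest reading was that of I rat 2.

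Against REF, Ctse differed by 0.70 ± 0.18 in C10 (log2, SE, limma adjusted p = 0.0689), 0.35 ± 0.20 in CF (adjusted p = 0.765) and -0.05 ± 0.18 in I (adjusted p = 0.983). It was not called in any of the 6 comparisons, and the exact permutation p of C10 against REF was 0.0857. Its direction in C10 was thus opposite to that of Pga5, and with Hoxb13 as a covariate the difference was 0.44 (adjusted p = 0.282).

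Tff1 is the trefoil peptide of gastric surface mucous cells. Its log2 signal was 7.64, 8.22, 6.84 and 8.20 in REF rats 1 to 4 and 6.75, 6.76, 6.69 and 6.22 in C10 rats 1 to 4. It was 6.40, 8.34, 6.47 and 6.20 in CF rats 1 to 4 and 7.16, 8.28, 6.54 and 7.48 in I rats 1 to 4. Again the 4 C10 rats lay below the 4 REF rats, an order that 2.02 % of all genes tested showed. The gap was narrow, with C10 rat 2 at 6.76 and REF rat 3 at 6.84. Over all rats Cy5 read lower than Cy3 by a log2 difference of -0.35, and with the dye adjusted the order no longer held. CF rat 2 and I rat 2 were as bright as the brightest REF rats. The other 3 CF rats were within or just below the range of the C10 rats.

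The Tff1 mean was 7.72 ± 0.65 in REF, 6.60 ± 0.26 in C10, 6.85 ± 0.995 in CF and 7.36 ± 0.72 in I (SD, n = 4). In limma, the difference from REF was -1.34 ± 0.40 in C10 (adjusted p = 0.106), -0.97 ± 0.44 in CF (adjusted p = 0.689) and -0.24 ± 0.40 in I (adjusted p = 0.952), so Tff1 was not called. When 1 rat was left out, the CF difference ran from -1.51 to -0.68. The exact permutation p of C10 against REF was 0.0571. Without REF rat 3, the dimmest of its group, the difference was -1.56 and the adjusted p 0.0495. With no offset added to the signals it was -2.08 (adjusted p = 0.113).

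Tff2 is the trefoil peptide of gastric neck and antral gland cells, and its gene lies next to Tff1 in the GRCr8 RefSeq table. It was detected in REF rats 1, 2 and 4, in CF rat 2 and in I rat 2, at log2 signals of 6.34, 6.69, 7.12, 6.57 and 6.80. It was not well above background in any C10 rat, and it reached the 4 rats needed for testing only with the REF rats counted. C10 thus has only a bound, by which the mean REF signal was at least 1.35-fold higher, a difference that was not called (limma adjusted p = 0.193). The bound sets the mean REF signal against the higher, in each C10 rat, of the probe's own signal and the lowest signal well above background. In every C10 rat this was the probe's own signal, so the bound equals the plain difference of the means. That REF mean includes REF rat 3, which was not well above background. The fitted difference, -0.49, ran from -0.65 to -0.32 when 1 rat was left out. Over 30 alternatives it ran from -2.63 to -0.13, so its size rested on the processing.

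Gkn1 and Gkn2 are gastrokines, secreted by gastric surface cells. Gkn1 was detected in REF rats 2 and 4 only, by 1 of 2 spots in each, with log2 signals of 6.14 and 6.29. CF rat 3 read 6.13 without being marked, so this detection was at the limit of the method. Gkn1 was too dim over the rats to be tested. REF rats 2 and 4 were also the 2 highest in Gkn2, which read 6.84, 8.69, 6.25 and 8.64 in REF rats 1 to 4. The other rats with a clear Gkn2 signal were CF rat 2 at 8.45, I rat 2 at 7.28, I rat 4 at 7.07 and C10 rat 3 at 6.95. C10 rat 4 was counted as detected at 5.95 by 1 of 2 spots, and the remaining 8 rats, read at 5.85 to 6.51, were not well above background.

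The spread of Gkn2 within REF was as wide as the spread between diets. Against REF, C10 differed by -1.43 ± 0.56 (limma adjusted p = 0.191), CF by -1.06 ± 0.61 (adjusted p = 0.767) and I by -0.82 ± 0.56 (adjusted p = 0.873). Gkn2 was not well above background in 2 of 4 C10, 3 of 4 CF and 2 of 4 I rats, so the sizes of these differences are not exact. When 1 rat was left out, they ran from -1.90 to -0.89 for C10, -1.78 to -0.62 for CF and -1.41 to -0.30 for I. The exact permutation p of C10 against REF was 0.229, and with no offset the C10 difference was -2.42 (adjusted p = 0.202). Limma did not call the gene in any of the 6 comparisons.

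Atp4a encodes the catalytic subunit of the gastric proton pump. Its 2 probes disagreed on detection. The probe with 1 spot was well above background in 16 of 16 rats, at log2 6.68 to 7.01, and the probe with 2 spots was so in I rat 3 only, by 1 of its spots, at 6.27. The brighter probe, which entered the fit, did not move with diet. Its difference from REF was 0.00 ± 0.07 in C10, 0.01 ± 0.08 in CF and -0.07 ± 0.07 in I (log2, SE, limma adjusted p of 0.984, 0.993 and 0.927). The partner subunit Atp4b was not well above background in any of the 16 rats.

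Over the 6 tested genes, 4 had a negative log2 difference in C10 against REF and the median was -0.92, beside a median of 0.01 over all genes, 46.3 % of which were negative. In CF against REF, 4 of 6 were negative with a median of -0.73, and in I against REF 6 of 6 with a median of -0.24. In I against REF, the sign of Ctse, Tff1 and Tff2 turned when single rats were left out. These comparisons share the REF rats. Tff2, negative in each of them, helps to set these medians, although its size has only a bound in C10. It was detected in 3 REF, 0 C10, 1 CF and 1 I rats, so it passed the filter of 4 rats only with the REF rats counted. That filter favours a lower signal in the other diets, and the counts and medians are descriptions only. In limma, 0 of 6 gastric-type genes and 0 % of all genes were called for CF against REF, where 1429 genes had an unadjusted p below 0.05. The same held for I against REF (0 % called, 1277 genes) and CF against I (0 % called, 658 genes). For C10 against CF and C10 against I, 0 of 6 were called beside 0.121 % and 0.181 % of all genes, with 2855 and 2546 genes at an unadjusted p below 0.05.

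The rank product, the test named in the study's methods, ranks fold changes over pairs of rats and was run with 100 permutations. At an estimated share of false positives below 0.05 and at least 2-fold, it called Pga5, Tff1 and Gkn2 lower in C10 than in REF, 3 of 6 genes beside 136 of 19899 (0.683 %). Because the 6 genes were listed with earlier results of these data known, this count is a description and no test of the list. For CF against REF it called Pga5 alone, 1 of 6 beside 0.246 % of all genes. Tff1 and Gkn2 had shares of 0.0205 and 0.0158 there, and Gkn2 0.0106 for I against REF, with changes read as under 2-fold. For Gkn2 these changes are not exact, since only 1 CF rat and 2 I rats were well above background. It called 0 of 6 for I against REF beside 0.151 % of all genes, and for CF against I beside 0.0754 %. It also called 0 of 6 for C10 against I beside 0.553 %, and for C10 against CF beside 0.327 %. Unlike limma, it uses neither the pairing of rats on arrays nor the dye.

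Pga5, Tff1, Tff2 and Gkn2 were high in largely the same rats. The 6 rats with the highest Pga5 were REF rats 1, 2 and 4, CF rat 2 and I rats 2 and 4, and the same 6 rats were highest in Tff1. The 5 rats with Tff2 well above background were all among them. For Gkn2, 5 of its 6 highest rats were among them, with C10 rat 3 in place of REF rat 1. After the diet and dye means were removed, Spearman's rho over the 16 rats was 0.84 between Pga5 and Tff1, given as a description. Ctse ran the other way, with a rho of -0.74 to Pga5 and -0.60 to Tff1, and so did the brighter Atp4a probe, with -0.71 and -0.65, over a range of 6.68 to 7.01. In the signals themselves, rho to Pga5 was 0.83 for Tff1, -0.76 for Ctse and -0.36 for Atp4a. All of these signals come from the same 8 arrays.

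Hoxb13, a gene of the distal colon, ran opposite to this order. Of 7 posterior Hox genes listed, 4 had a probe, and all 4 had a positive log2 difference in C10 against REF, with a median of 0.99 and 0 called. Hoxb13, the brightest of them, read 13.14, 12.36, 14.01 and 6.60 in REF rats 1 to 4 and 14.06, 14.35, 13.40 and 14.88 in C10 rats 1 to 4. It read 13.91, 9.72, 13.98 and 14.36 in CF rats 1 to 4 and 13.79, 9.96, 13.51 and 12.62 in I rats 1 to 4. The 6 rats lowest in Hoxb13 were the 6 rats highest in Pga5 and in Tff1, and no C10 rat was among them. For Hoxd13 and Hoxd10, 5 of the 6 lowest rats were among those 6, and Hoxd12 was detected in 6 rats only.

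The difference of Hoxb13 between C10 and REF was 2.79 (log2, limma adjusted p = 0.293), with REF rat 4 at 6.60 far below the other 3 REF rats at 12.36 to 14.01. The log2 of the summed signals of the 4 posterior Hox genes is set mostly by Hoxb13 where that gene is bright. This value was 13.24, 12.49, 14.07 and 8.81 in REF rats 1 to 4 and 14.11, 14.41, 13.51 and 15.00 in C10 rats 1 to 4. It was 13.99, 10.34, 14.05 and 14.43 in CF rats 1 to 4 and 13.86, 10.57, 13.59 and 12.73 in I rats 1 to 4. With Hoxb13 as a covariate, the C10 against REF difference of Tff1 was -0.66 (adjusted p = 0.359) and that of Gkn2 -0.51 (adjusted p = 0.673). With REF rat 4, CF rat 2 and I rat 2 left out together, the 3 rats of lowest Hoxb13, the Pga5 difference was -1.20 (adjusted p = 0.0768) and that of Tff1 -1.06 (adjusted p = 0.0797). These 3 rats are among the 6 highest in Pga5 and in Tff1, and Hoxb13 itself read differently in C10 and REF. Smaller differences in these fits thus follow in part from the choice of rats and covariate. The fits cannot separate diet from place of sampling, and whether the place of sampling had a part in the differences between diets was not tested.

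**Figure D2:**
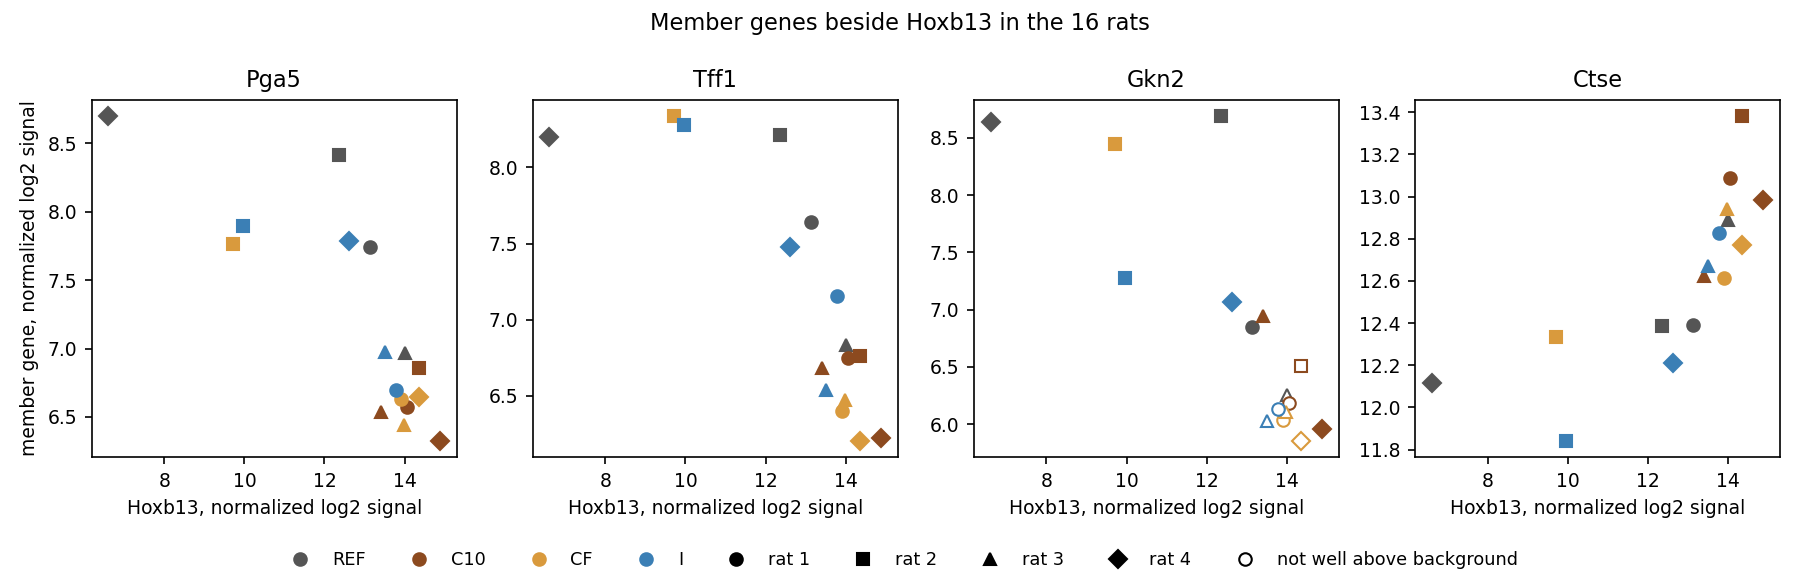
Normalized log2 signals of Pga5, Tff1, Gkn2 and Ctse (vertical axes) against that of Hoxb13 (horizontal axes) in 16 rats, with colour for diet, symbol shape for the rat and open symbols where the gene was not well above background. The 6 rats lowest in Hoxb13, from 6.60 to 13.14, hold the 6 highest Pga5 and Tff1 signals, and Ctse is highest, at 13.38, in a rat with a Hoxb13 signal of 14.35.

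Other cell lists were set beside the gastric-type genes for C10 against REF, and in limma 0 genes of the following were called. The 8 M cell genes, markers of the epithelium over lymphoid follicles, had a median log2 difference of 0.10, with Anxa5 the brightest. The 3 tested antigen-presenting cell genes, of 5 with a probe, had a median of -0.01, with Cd74 the brightest. By summed signal, the 6 highest rats of both lists were REF rat 3, C10 rat 1, CF rats 1 and 3 and I rats 1 and 3, none of them among the 6 highest in Pga5. Cd79b, a B cell gene, read 9.72 to 11.89 in these 6 rats and C10 rat 3 and 6.73 to 7.99 in the other 9. The part of lymphoid tissue in the differences between diets was not tested. The 7 tested small intestine genes had a median of -0.14, with Fabp2 the brightest and Cps1 never well above background. The 6 highest rats of Fabp2, a fatty acid carrier of enterocytes, were those of Pga5, and it differed by -1.01 in C10 against REF (adjusted p = 0.235). The 9 colon genes had a median of -0.01 and the 4 tested pancreatic genes of -0.04. Of the 7 goblet genes, with Clca1 the brightest, 6 were negative and the median was -0.46. Some of these markers followed the order of Pga5 as well. After the diet and dye means were removed, Spearman's rho to Pga5 over 16 rats was 0.88 for Car1, a colon carbonic anhydrase, 0.75 for Agr2, which folds goblet cell mucin, and -0.35 for Tff3. In the signals themselves it was 0.63, 0.55 and -0.17. Car1 differed by -0.64 in C10 against REF (adjusted p = 0.647) and Agr2 by -0.79 (adjusted p = 0.169).

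Some further genes of gastric cell types were never well above background, and some of those detected followed the order of Pga5. Among 7 measured surface cell genes, Anxa10 and Cldn18 were never well above background, and the brightest was Krt20, which colon epithelium also makes. The median log2 difference of the 5 tested ones in C10 against REF was -0.28 and 0 were called. Capn8, a calpain of that list, shared 5 of its 6 highest rats with Pga5 and differed by -0.86 in C10 against REF (adjusted p = 0.0598). Foxq1, a transcription factor of the same list, differed by 0.96 in the opposite direction (adjusted p = 0.0765). Of the chief cell list, 8 of 8 were measured, and Chia and Cblif, the gene of intrinsic factor, were never well above background. Pgc, a second pepsinogen, was detected in 16 rats at 8.15 to 8.89 and differed by -0.06 in C10 against REF (adjusted p = 0.837). The 5 tested chief cell genes had a median of -0.08, with 4 negative and 1 positive, and 0 were called. Nupr1, the brightest, differed by -0.61 (limma adjusted p = 0.299) and Bhlha15 by -0.91 (adjusted p = 0.129). By the summed signal of these 5 genes, 5 of the 6 highest rats were among the 6 of Pga5, with C10 rat 3 at 13.86 above REF rat 2 at 13.71, and by their mean log2 signal all 6 were. Within the list, Pgc shared 3 and Cym 2 of their own 6 highest rats with Pga5.

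Of the parietal cell list, 10 of 11 genes had a probe, and Atp4b, Cblif and Slc26a9, an anion channel, were never well above background. Kcnq1, a potassium channel found in many epithelia, was the brightest. The 5 tested parietal genes had a median log2 difference of 0.05 and the 4 tested neck and gland genes, led by Lyz2, of 0.08, with 0 called in both. Among the transcription factors of the foregut, Gata4 and Barx1 were never well above background, and the 4 tested ones, with Foxa2 the brightest, had a median of 0.01 and 0 calls.

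Among these further lists, the gastric endocrine list held the only call. Hdc, which makes histamine in endocrine cells of the stomach and also in mast cells, read 8.54, 8.39, 8.52 and 8.34 in REF rats 1 to 4 and 7.57, 7.44, 7.15 and 7.13 in C10 rats 1 to 4. It was lower in every C10 rat than in every REF rat, with a log2 difference of -1.08 ± 0.07 (limma adjusted p = 1.71e-05), and it was lower in C10 than in I by -1.06 ± 0.08 (adjusted p = 6.58e-05). In both comparisons 1 of 5 endocrine genes was called, beside 0.226 % and 0.181 % of all genes. Against CF the C10 difference was -0.92 (adjusted p = 1.31e-04), below 2-fold. The CF rats at 8.12 to 8.30 and the I rats at 8.35 to 8.42 all lay above the C10 rats, so Hdc did not share the order of Pga5. For Ghrl, the gene of ghrelin, rho to Pga5 was 0.88 after the diet and dye means were removed and 0.60 in the signals themselves, and its highest rat was C10 rat 3. It differed by -0.34 in C10 against REF (adjusted p = 0.707). Gast, the gene of gastrin, shared 0 of its 6 highest rats with Pga5 and differed by 0.32 (adjusted p = 0.757). Sst, the brightest of the list, differed by -0.23 in C10 against REF (adjusted p = 0.600).

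For each gastric-type gene detected in at least 12 rats, the 3 genes most like it across rats were found by Spearman's rho over 16 rats after the diet and dye means were removed. Nearest to Pga5 were Chga, the chromogranin of endocrine cells, with a rho of 0.97, Pbp2 with 0.97 and Cyp4f40 with 0.96. Chga read 8.63 to 10.75, and its 6 highest rats were those of Pga5, a match that its choice by likeness favours. Among the 6 highest rats of Pbp2, I rat 3 stood in place of REF rat 1. Nearest to Tff1 were Fam3c (0.92), Tac4 (0.91), a tachykinin gene, and Pdk3 (0.91). Tac4 was itself called in C10 against REF, at -2.39 (limma adjusted p = 0.0456). Nearest to Ctse were Tor4a (0.94), Rhbdf2 (0.93) and Kdm2b (0.91), and nearest to Atp4a were Madd (0.93), Bcdin3d (0.90) and Cad (0.89).

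Promoters are shown for Pga5 and Gkn2, which were high in largely the same rats, and for Ctse, which ran the other way. RefSeq promoters of build GRCr8 were given for 6 of the 9 genes, and Tff1, Tff2 and Muc5ac had no entry. Each line gives the 250 bases before the start that the promoter table sets for the gene, 5′ to 3′ on the strand of the gene, with matches in capitals. For Gkn2, that start lies inside the span that the RefSeq gene table gives over all its transcripts.
Pga5, chr1:216752068-216752317, minus strand: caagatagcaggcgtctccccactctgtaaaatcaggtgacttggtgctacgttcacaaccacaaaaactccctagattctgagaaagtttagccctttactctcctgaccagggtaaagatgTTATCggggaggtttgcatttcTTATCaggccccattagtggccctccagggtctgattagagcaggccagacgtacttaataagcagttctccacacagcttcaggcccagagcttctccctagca
Gkn2, chr4:121375344-121375593, plus strand: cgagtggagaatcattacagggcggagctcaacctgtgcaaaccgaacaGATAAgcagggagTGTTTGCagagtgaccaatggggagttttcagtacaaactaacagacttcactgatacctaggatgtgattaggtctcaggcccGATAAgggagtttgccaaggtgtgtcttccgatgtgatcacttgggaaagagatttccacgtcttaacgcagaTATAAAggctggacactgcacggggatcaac
Ctse, chr13:45643965-45644214, plus strand: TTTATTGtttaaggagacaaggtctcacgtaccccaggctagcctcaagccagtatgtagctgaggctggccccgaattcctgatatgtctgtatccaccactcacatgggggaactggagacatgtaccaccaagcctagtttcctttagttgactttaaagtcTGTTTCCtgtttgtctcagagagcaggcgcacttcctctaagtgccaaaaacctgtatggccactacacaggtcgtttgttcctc
The motifs searched on both strands were TATAAA (the TATA box), GATAA (read by GATA factors), TTTATNG (read by caudal factors such as Cdx2) and TGTTTNC (read by forkhead factors). On the minus strand, TTTATNG can share bases with TATAAA. The Pga5 promoter held 2 GATAA matches and none of the others, and the Gkn2 promoter held 2 GATAA, 1 TATAAA and 1 TGTTTNC. The Ctse promoter held 1 TTTATNG and 1 TGTTTNC and no GATAA. Of 33469 promoters of this length, 23.5 % held GATAA, 12.9 % TATAAA, 10.1 % TTTATNG and 18.3 % TGTTTNC, so such matches are frequent and describe these letters only.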

How the data were processed

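The authors extracted the scanned arrays with Agilent Feature Extraction 10.7.3.1 and deposited unnormalized median intensities of spots and local backgrounds in both dyes. The processed intensities, also deposited, entered 1 alternative. A normalized table with 8 columns was not used here, since its columns match no sample label. All arrays shared 1 slide and 1 scan.

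The software was R 4.3.3 with statmod 1.5.0, limma 3.58.1 and, for reading, data.table version 1.17.8. Steps were normexp with an offset of 50, spatial loess (span 0.4), intensity loess (span 0.3) and Aquantile, with spots of a probe averaged. Offset and spans are not given in the sources used here. Accessions were named through the RefSeq table of GRCr8, with 17935 of 19109 NM accession probes matched to 15168 symbols. Probes well above background in at least 4 rats were kept (22537 of 30367), and the brightest probe stood for a gene. Single-channel log2 signals were fitted by diet and dye with a within-spot correlation of 0.477, and p-values were Benjamini-Hochberg adjusted over all genes. Because each array couples 2 rats, fitted differences are not exactly differences of means. The scripts were tested on simulated data.

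The genes named were all listed gastric-type genes, and in the other lists those called, the brightest and those never well above background, and for each gastric-type gene detected in at least 12 rats the 3 genes most like it. Cdx2, Tff3, Cel, Pgc, Cym, Bhlha15, Capn8, Foxq1, Ghrl, Gast, Car1, Agr2, Cd79b and the Hoxd genes were added after their values were seen. The members and lists were chosen with earlier results of these data known. Alternatives were background offset, processed signals, normalization, probe filter, dye and array-set terms, log-ratios, probe averaging, any fold change, rank product and leaving out each rat. Results of the B cell list as a whole, and 1 fit with covariates chosen after seeing the data, are not reported.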

Additional observations from a re-analysis of the deposited data

Results flagged for a closer look

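Within each diet, 1 rat far from the other 3 was looked for in the 6 tested gastric-type genes and Hoxb13. Of 28 groups, 5 held such a rat, and chance gives about 1 in 20. CF rat 2 was 4 of the 5. Its Pga5 signal of 7.77 stood above 6.44 to 6.65 in the other CF rats, its Tff1 signal of 8.34 above 6.20 to 6.47 and its Gkn2 signal of 8.45 above 5.85 to 6.10, while its Hoxb13 signal of 9.72 stood below 13.91 to 14.36. These genes vary together across rats, so the 4 are not independent. The other 3 CF rats were not well above background for Gkn2, so their narrow range is that of background. The fifth was the Tff1 signal of C10 rat 4, at 6.22 below 6.69 to 6.76 in the other C10 rats.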

How the results depend on the processing

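The number of gastric-type genes called in C10 against REF, 1 with the settings above, was 0 without a filter on dim probes and in log-ratios within arrays, and 3 by rank product. It was also 0 with Hoxb13 as a covariate and with the 3 rats of lowest Hoxb13 left out, alternatives chosen after seeing the data, as was a correlation from duplicateCorrelation, which left it at 1. Leaving out 1 rat gave 0 to 2. The Pga5 call was lost without REF rats 1, 2 or 4 (adjusted p of 0.0725, 0.205 and 0.0951), without C10 rats 1 to 4 (0.0619, 0.0935, 0.0505 and 0.0711), without CF rats 3 or 4 (0.0533 and 0.0538) and without I rats 2, 3 or 4 (0.0550, 0.0539 and 0.0628). Over its limma alternatives the adjusted p ran from 0.00954 to 0.250, and the difference was negative in all 30 alternatives (-2.64 to -0.92). Without REF rat 3, Tff1 was called too. For CF against REF the count was 0, and 1 by rank product. In the other 4 comparisons it was 0 in all 31 alternatives. The sizes moved more. Over 30 alternatives, the CF against REF difference ran from -1.81 to -0.67 for Pga5 and from -2.01 to -0.54 for Tff1. It ran from -2.38 to -0.25 for Tff2 and from -3.29 to -0.47 for Gkn2. In I against REF, Gkn2 ran from -2.13 to -0.30 and Tff2 from -1.16 to 0.035.

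Differences near 0 changed sign. That of Atp4a in C10 against REF was -0.013 with processed signals, -0.020 by rank product, -0.050 with Hoxb13 and -0.0064 without the 3 rats, and -0.068 to 0.066 when 1 rat was left out. In CF against REF it was -0.0032 without an offset, -0.013 with processed signals, -0.0030 by rank product and -0.029 with Hoxb13, and -0.032 to 0.073 when 1 rat was left out. In I against REF, Ctse was 0.030 without the 3 rats and -0.19 to 0.16 when 1 rat was left out. Tff1 was 0.032 with Hoxb13 and -0.59 to 0.12 when 1 rat was left out, and Tff2 was -0.44 to 0.035. The causes were not tested. Of all genes, 45 were called in C10 against REF, beside 82 with processed signals, 74 without an offset, 71 without normalization between arrays, 296 at any fold, 136 by rank product, 0 in log-ratios, 16 with Hoxb13, 15 without the 3 rats and 17 to 106 when 1 rat was left out. When 1 rat was left out, the 24 calls of C10 against CF became 0 to 38 and the 36 of C10 against I 14 to 61. The number of genes detected in at least 1 rat was 7, and 6 where all spots had to pass. Atp4a counted there through its probe with 1 spot, and its probe with 2 spots passed that rule in 0 rats. Signal close to background limits Gkn1, Gkn2, Tff2 and the dimmer Atp4a probe, and 4 rats per diet limit precision.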
